A study of Mus musculus with 6 samples.

Results

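The Kruppel-like factors (KLFs) studied here were 10 transcription factor genes, Klf2, Klf3, Klf4, Klf5, Klf6, Klf7, Klf9, Klf10, Klf13 and Klf16, out of 54446 genes in the count table. The set was chosen from these data because Klf6 had higher counts after both drugs than in control cells. All 10 genes were among the 14956 kept for testing, those with 10 or more counts in 2 or more libraries. RNA-seq was carried out on TRAMP-C2 cells, an established prostate cancer cell line from a C57BL/6 male mouse. Cells were left without drug (control) or treated for 24 h with 2 µM oxaliplatin or 2 µM cisplatin, and each of the 3 groups held 2 poly(A) libraries. Separate cultures are not stated in the labels, so p-values measure the spread between these libraries, which may be technical.

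KLF proteins bind GC-rich and CACCC elements through zinc fingers at their C-terminus. They differ mainly in the N-terminal part, which recruits either coactivators or corepressors. Klf2, Klf4, Klf5, Klf6 and Klf7 are mostly known as activators that bind acetyltransferases, although Klf4 and Klf5 can also repress. Klf3 is a repressor that recruits CtBP, and Klf9, Klf10, Klf13 and Klf16 bind the Sin3 corepressor. KLF6 and KLF5 have both been studied in prostate cancer as regulators of growth.

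Promoters of Klf2, Klf4 and Klf6 are shown because these genes had 3 different patterns: higher counts with oxaliplatin, a graded increase from control to oxaliplatin to cisplatin, and similar counts with both drugs. Each sequence is the RefSeq stretch before the transcription start on build GRCm38.p6, read 5′ to 3′ on the strand of the gene. Bases past the gene start in GENCODE M21, a second annotation, were left out of the print. This left 221 bases for Klf2, 243 for Klf6 and 250 for Klf4, whereas 250 bases were searched for each. Capitals mark a GC box, spelled GGGCGG. They also mark a CCAAT box or a MEF2 site. All were searched on both strands.
Klf2, chr8:72318812-72319032, plus strand: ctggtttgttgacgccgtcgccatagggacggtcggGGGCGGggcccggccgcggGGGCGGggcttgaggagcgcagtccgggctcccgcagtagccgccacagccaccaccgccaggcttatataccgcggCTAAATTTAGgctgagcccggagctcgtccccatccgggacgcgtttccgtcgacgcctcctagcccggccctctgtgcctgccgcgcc
Klf4, chr4:55532476-55532725, minus strand: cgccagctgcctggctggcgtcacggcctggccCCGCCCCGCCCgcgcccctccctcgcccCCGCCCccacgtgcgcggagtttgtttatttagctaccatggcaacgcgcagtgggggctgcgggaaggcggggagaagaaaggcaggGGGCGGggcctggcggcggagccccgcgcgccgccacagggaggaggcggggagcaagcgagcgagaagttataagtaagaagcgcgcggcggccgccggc
Klf6, chr13:5861239-5861481, plus strand: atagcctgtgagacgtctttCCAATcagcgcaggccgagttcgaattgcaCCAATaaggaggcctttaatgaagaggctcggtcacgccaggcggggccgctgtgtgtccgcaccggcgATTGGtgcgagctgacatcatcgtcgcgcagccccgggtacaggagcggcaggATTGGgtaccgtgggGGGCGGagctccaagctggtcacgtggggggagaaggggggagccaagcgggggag

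RefSeq promoters were matched for 7 of the 10 genes (Klf2, Klf3, Klf4, Klf6, Klf7, Klf9 and Klf13). The 250 bases before the RefSeq start were searched. For Klf7 this window lay wholly inside the gene as annotated in GENCODE M21, and for Klf3 only 117 of the 250 bases lay before the GENCODE start. Matches in both windows may therefore lie in transcribed sequence. The GC box, an element that Sp and KLF proteins bind, occurred 4 times in Klf4, 2 times in Klf2 and 1 time in Klf6, some copies overlapping. It was present in 32.9% of the promoters of 27025 genes. The CCAAT box occurred 4 times in Klf6, 3 times in Klf9 and 2 times in Klf13 but not in the other 4 windows, and 34.5% of all promoters held one. The MEF2 site, bound by the MEF2 factors that lie downstream of the kinase ERK5, occurred 1 time in Klf2 and in 3.01% of all promoters. Among the searched promoters Klf3 held 6 GC boxes, Klf13 held 3, Klf7 held 1 and Klf9 held 0. The CACCC box (CACCC) was found 5 times in Klf3, 3 times in Klf7 and 1 time each in Klf2, Klf9 and Klf13. It was absent from Klf4 and Klf6, and 51.3% of all promoters held at least one. No copy of the cyclic AMP element (TGACGTCA, 1.62% of promoters), the CArG box (1.40%) or TATAAA (13.0%) was found in these 7 windows. The AP-1 site (TGANTCA, 6.87%) was found in Klf9 alone. GC content was 71.2% in Klf2, 74.0% in Klf4 and 64.8% in Klf6, against a median of 52.0% over all promoters. These matches describe letters in a window and do not identify binding.

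The 6 libraries held 21345312 to 24041767 counts each. A gene with 0 counts could be present at up to 3 counts, or 0.125 to 0.141 CPM, that is per library total. This limit covers counting error only. Cell type markers were read as summed CPM. Mesenchymal markers led by Fn1 summed to 6938 to 7719, with 4 of 4 above the count minimum in every library. Basal markers were above it for 1 of 3 (Krt14), with sums of 4.30 to 4.92 in control, 5.89 to 7.25 in oxaliplatin and 5.16 to 5.18 in cisplatin libraries. These sums followed Krt14 and do not describe the basal markers as a group. Scaled for library size, mean Krt14 counts went from 85.8 without drug to 138 with oxaliplatin and 112 with cisplatin. Trp63 went the other way, from 16.1 without drug to 9.20 with oxaliplatin and 5.95 with cisplatin. Krt5 was at 0 in every library. Immune markers were above the count minimum for 0 of 4, with sums of at most 0.129, and endothelial markers for 1 of 4 (Kdr), with sums of 1.07 to 1.26 in control, 2.29 to 2.79 in oxaliplatin and 2.37 to 3.14 in cisplatin libraries. Their part in the KLF values was not tested. Fewer cells of a type and less RNA per cell cannot be told apart in such bulk samples.

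Levels were compared between genes as RPKM, which scales counts to exon length and library total. Klf6 was the most abundant member in every library. Its RPKM was 24.9 ± 1.27 without drug, 34.4 ± 0.742 with oxaliplatin and 35.5 ± 1.33 with cisplatin (mean ± SD, n = 2). Klf16, Klf4 and Klf10 followed in control cells at 11.6, 11.2 and 10.8 RPKM, and their control libraries overlapped one another. Klf3 lay at 9.86, Klf9 at 6.33 and Klf13 at 5.40 RPKM, in that order. Klf7, Klf2 and Klf5 were lowest in control, at 2.87, 2.81 and 2.65 RPKM. The control libraries of Klf7 overlapped those of Klf5 and spanned those of Klf2, whereas both Klf2 libraries lay above both Klf5 libraries. Klf4 moved to second place with oxaliplatin (16.3 RPKM) and with cisplatin (24.1 RPKM). Klf2 reached 4.45 RPKM with oxaliplatin against 2.41 with cisplatin, and Klf5 reached 4.34 RPKM with cisplatin against 2.74 with oxaliplatin.

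**Figure D1:**
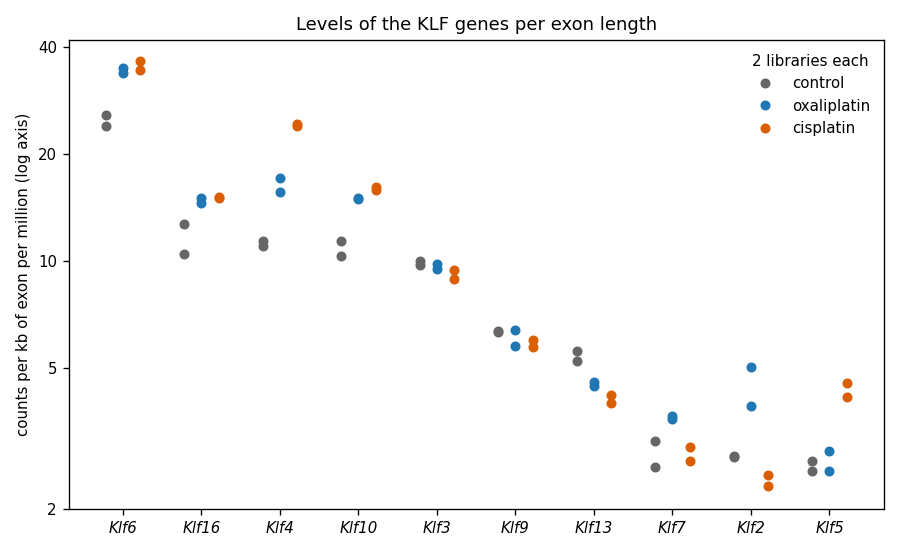
Level of each KLF gene per library in RPKM (log axis), 2 libraries per group. Klf6 was highest in all 6 libraries, at 24.0 to 36.4.

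The counts below are normalised counts, that is expected counts divided by the size factor of the library, in the order replicate 1 and 2. Drug and control libraries were compared with DESeq2 (log2 fold change ± SE). Both drug comparisons share the same 2 control libraries. Because the set was chosen by Klf6 in these comparisons, members are described there without p-values. The activator group is given first.

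Klf6 (ENSMUSG00000000078, GRCm38 chr13:5861482-5870394, plus strand), a candidate tumour suppressor in prostate cancer, had 2332 and 2498 normalised counts in control cells. Oxaliplatin libraries had 3426 and 3325, and cisplatin libraries had 3463 and 3665. Both drug groups lay above control without overlap, and the highest oxaliplatin library lay just under the lowest cisplatin library. The log2 fold change was 0.48 ± 0.06 for oxaliplatin (1.40-fold) and 0.56 ± 0.06 for cisplatin (1.48-fold). Of the 14956 genes tested, 1045 had a higher log2 fold change with oxaliplatin and 1061 with cisplatin. These ranks are description only, because the rise of Klf6 with both drugs chose the set.

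Klf4 (ENSMUSG00000003032, chr4:55527143-55532466, minus strand), which takes part in cell cycle arrest and epithelial differentiation, had the highest log2 fold change of the family with cisplatin. Normalised counts of Klf4 were 769 and 743 in control, 1062 and 1164 in oxaliplatin and 1689 and 1676 in cisplatin libraries. The 3 groups did not overlap, with oxaliplatin between control and cisplatin. Against control its log2 fold change was 0.56 ± 0.09 (1.47-fold) for oxaliplatin and 1.15 ± 0.09 (2.23-fold) for cisplatin.

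Klf5 (ENSMUSG00000005148, chr14:99298691-99315036, plus strand), which promotes epithelial proliferation, had 296 and 313 normalised counts in control. Oxaliplatin libraries had 339 and 297, which overlapped control, whereas cisplatin libraries had 538 and 493 and lay above both. Klf5 had a log2 fold change of 0.06 ± 0.15 for oxaliplatin and 0.76 ± 0.15 (1.69-fold) for cisplatin.

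Klf2 (ENSMUSG00000055148, chr8:72319033-72321656, plus strand), known in endothelium and quiescent T cells, was among the 3 least abundant members. It had 115 and 114 normalised counts in control, 161 and 207 in oxaliplatin and 105 and 98.2 in cisplatin libraries. Oxaliplatin libraries were high and the most spread, at 184 ± 32.6 (SD, n = 2). Its log2 fold changes were 0.68 ± 0.25 for oxaliplatin and -0.18 ± 0.26 for cisplatin.

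Klf7 (ENSMUSG00000025959, chr1:64029447-64122282, minus strand), known for its part in axon growth, had 474 and 559.6 normalised counts in control. Oxaliplatin libraries had 664 and 651, above control, and cisplatin libraries had 554 and 509, within its range. Klf7 had a log2 fold change of 0.35 ± 0.13 for oxaliplatin and 0.04 ± 0.13 for cisplatin. Klf7 shares 3196 exon bases with the opposite-strand lincRNA Gm26649. That gene had 10.3, 19.4, 8.28, 67.2, 0.82 and 83.7 expected counts over the 6 libraries (control, oxaliplatin, cisplatin). The strand setting of the counting is not given in the sources used here, so the division of reads between both genes is uncertain. Their summed normalised counts were 485 and 578 in control, 671 and 719 in oxaliplatin and 555 and 594 in cisplatin libraries, so oxaliplatin remained highest.

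**Figure D2:**
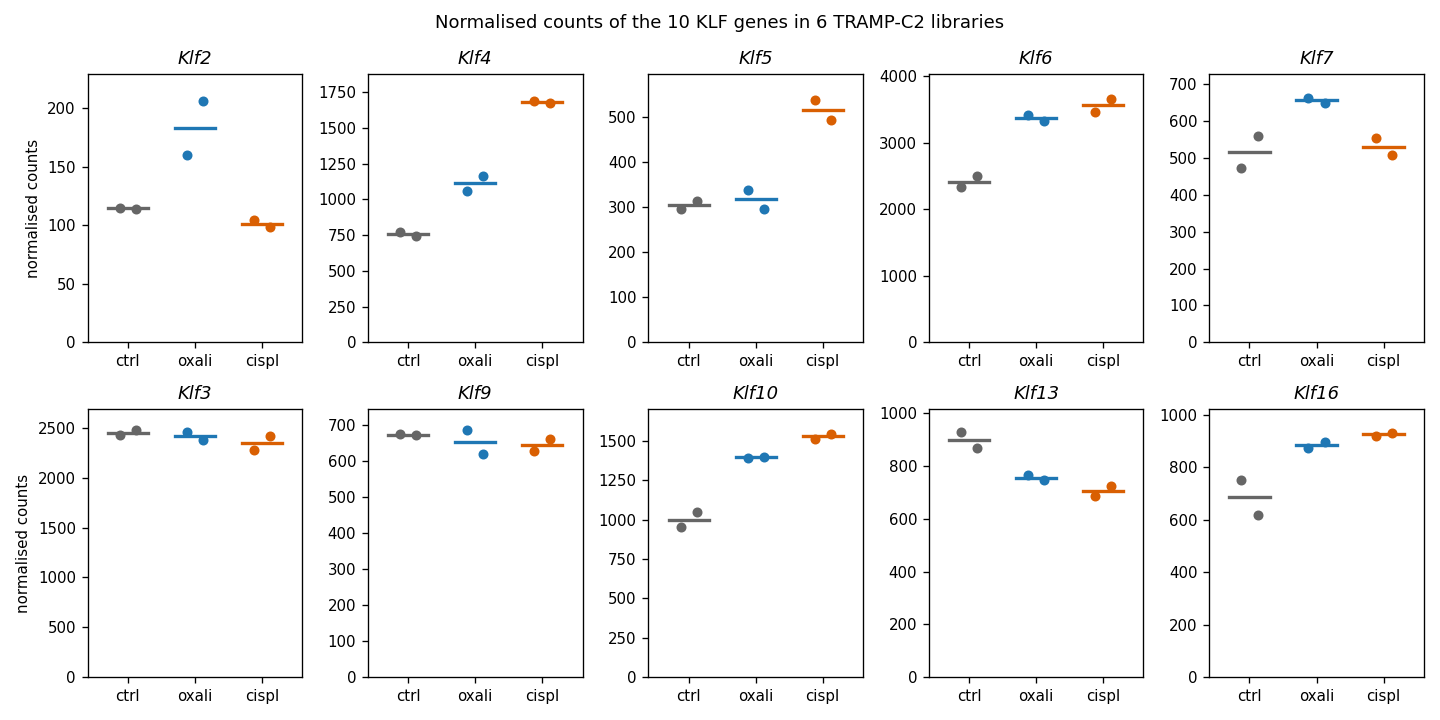
Normalised counts (y axis, starting at 0, own scale per gene) of the 10 KLF genes in control (ctrl), oxaliplatin (oxali) and cisplatin (cispl) libraries. Points are libraries and bars are means of 2. Klf4 is stepped across the 3 groups, Klf5 is high with cisplatin, Klf2 is high with oxaliplatin, and Klf3 and Klf9 are level.

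Among the corepressor-binding members, Klf10 (ENSMUSG00000037465, chr15:38291463-38300706, minus strand), a gene induced by TGF-β in many cells, had 955 and 1046 normalised counts in control. Oxaliplatin libraries had 1393 and 1401, and cisplatin libraries had 1514 and 1546. Both drug groups lay above control without overlap. The log2 fold change was 0.48 ± 0.08 for oxaliplatin and 0.61 ± 0.08 for cisplatin.

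Klf16 (ENSMUSG00000035397, chr10:80567124-80577321, minus strand), a factor of GC-rich promoters, had 751 and 619 normalised counts in control, 871 and 895 with oxaliplatin and 919.5 and 929 with cisplatin. Its control libraries were the most spread of the groups (685 ± 93.7, SD, n = 2), yet both lay below every drug library. For Klf16 the log2 fold change was 0.37 ± 0.12 for oxaliplatin (0.24 without control replicate 2) and 0.43 ± 0.11 for cisplatin.

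Klf13 (ENSMUSG00000052040, chr7:63886351-63938915, minus strand), known in T cells as a regulator of Ccl5, went the other way. It had 929 and 869 normalised counts in control, 765 and 748 in oxaliplatin and 685 and 723 in cisplatin libraries. Both control libraries lay above all drug libraries. For Klf13 the log2 fold change was -0.25 ± 0.10 for oxaliplatin and -0.35 ± 0.10 for cisplatin.

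Klf9 (ENSMUSG00000033863, chr19:23141226-23168134, plus strand), a glucocorticoid and thyroid hormone response gene, had 675 and 674 normalised counts in control, 686 and 620.2 in oxaliplatin and 629 and 661 in cisplatin libraries. Klf3 (ENSMUSG00000029178, chr5:64803388-64832901, plus strand), a CtBP-binding repressor, had 2425 and 2479.8 in control, 2462 and 2378 in oxaliplatin and 2280.2 and 2421 in cisplatin libraries. The log2 fold changes of Klf9 were -0.04 ± 0.11 and -0.06 ± 0.11 with oxaliplatin and cisplatin, and those of Klf3 were -0.02 ± 0.06 and -0.06 ± 0.06, and the cisplatin libraries of both lay just below control. Klf3 shares 404 exon bases with the opposite-strand gene Gm20033, which had 3.02 to 11.1 expected counts.

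With oxaliplatin, DESeq2 called 6 of the 10 members against control, all higher (Klf2, Klf4, Klf6, Klf7, Klf10 and Klf16), where 20.2% of all genes were called (10.7% higher and 9.50% lower). With cisplatin it called 6 members, 5 higher (Klf4, Klf5, Klf6, Klf10 and Klf16) and 1 lower (Klf13), where 28.1% of all genes were called (15.7% higher and 12.4% lower). Median log2 fold changes over the members were 0.36 and 0.24, beside -0.00285 and -0.000832 over all genes tested. Nothing is read from these counts and medians, since the set was chosen on the rise of Klf6 in the same comparisons. Klf2 lost its oxaliplatin call without any 1 of the 6 libraries. The oxaliplatin calls of Klf7 and Klf16 and the cisplatin calls of Klf13 and Klf16 were each lost in some fits that left out 1 library. Klf4, Klf6 and Klf10 kept their calls with both drugs in every such fit, as did Klf5 with cisplatin.

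**Figure D3:**
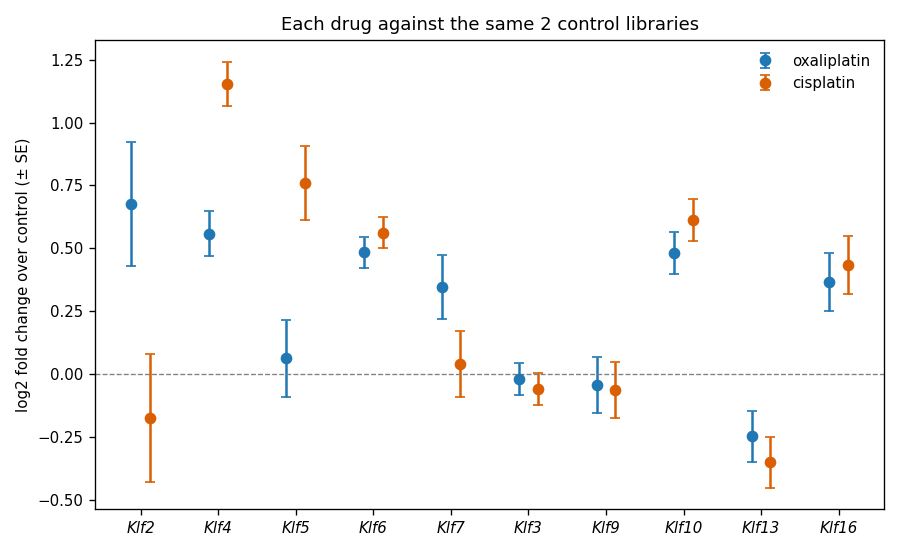
Log2 fold change (y axis) of each KLF gene over the same 2 control libraries, for oxaliplatin and cisplatin, with ± SE bars. Klf4, Klf5, Klf6, Klf7, Klf10 and Klf16 lie above 0 with both drugs, Klf5 only slightly with oxaliplatin and Klf7 only slightly with cisplatin. Klf13 lies below 0 with both, and Klf3 and Klf9 lie just below 0 with both.

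Oxaliplatin and cisplatin were compared directly at the same dose and time. Both are platinum compounds that form DNA adducts. Cisplatin carries ammine and chloride ligands, whereas oxaliplatin carries a diaminocyclohexane and an oxalate ligand. This 1 pair of compounds was compared for 10 members, with p-values adjusted over the 12056 of 14956 tested genes that passed independent filtering. DESeq2 called 3 of the 10 members, 1 higher with oxaliplatin (Klf2) and 2 higher with cisplatin (Klf4 and Klf5). Of all genes tested, 19.9% were called, 8.62% higher and 11.3% lower with oxaliplatin. The median log2 difference was -0.02 over the members and -0.00333 over all genes.

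Klf4 was lower with oxaliplatin than with cisplatin by a log2 difference of -0.60 ± 0.09, which is 0.661-fold (95% interval -0.76 to -0.43, DESeq2 adjusted p = 1.26e-10). Klf5 was lower with oxaliplatin by -0.70 ± 0.15, which is 0.617-fold (95% interval -0.99 to -0.41, DESeq2 adjusted p = 3.33e-05). Both drug pairs were separate, and Klf4 and Klf5 passed the threshold under every one of 14 alternative settings, with adjusted p from 3.64e-11 to 5.39e-04 and from 1.16e-05 to 0.0414. Adjusted without independent filtering, Klf5 missed it without oxaliplatin replicate 2 (DESeq2 adjusted p = 0.0529) and without cisplatin replicate 1 (adjusted p = 0.0598).

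Klf2 was higher with oxaliplatin than with cisplatin by 0.85 ± 0.25, which is 1.81-fold (95% interval 0.37 to 1.34, DESeq2 adjusted p = 0.00416). The call rested on having 2 libraries per drug. Without any 1 of the 4 drug libraries, DESeq2 gave no adjusted p for Klf2 because of independent filtering, and the p adjusted without that filtering was 0.0560 without oxaliplatin replicate 1, 0.376 without oxaliplatin replicate 2, 0.129 without cisplatin replicate 1 and 0.191 without cisplatin replicate 2. The log2 difference in these 4 fits was 1.02, 0.66, 0.90 and 0.81, higher with oxaliplatin in each.

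Klf7 differed by 0.31 ± 0.13 (95% interval 0.06 to 0.56) and was not called (DESeq2 adjusted p = 0.0636), although edgeR called it (adjusted p = 0.0157). Over all alternatives its adjusted p ranged from 0.0157 to 0.439, with 4 of 14 past the threshold. For Klf6 the difference was -0.08 ± 0.06 (95% interval -0.20 to 0.04), and it was not called. Its drug libraries were used to choose the set, so no p-value is given for it. Klf10 (-0.13, interval -0.29 to 0.03, DESeq2 adjusted p = 0.251), Klf16 (-0.07, -0.29 to 0.16, adjusted p = 0.738) and Klf13 (0.10, -0.10 to 0.30, adjusted p = 0.515) were not called either. Klf3 (0.04, -0.08 to 0.17, DESeq2 adjusted p = 0.694) and Klf9 (0.02, -0.20 to 0.24, adjusted p = 0.934) had the values nearest to 0. A missed threshold does not show that both drugs acted alike on these genes.

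**Figure D4:**
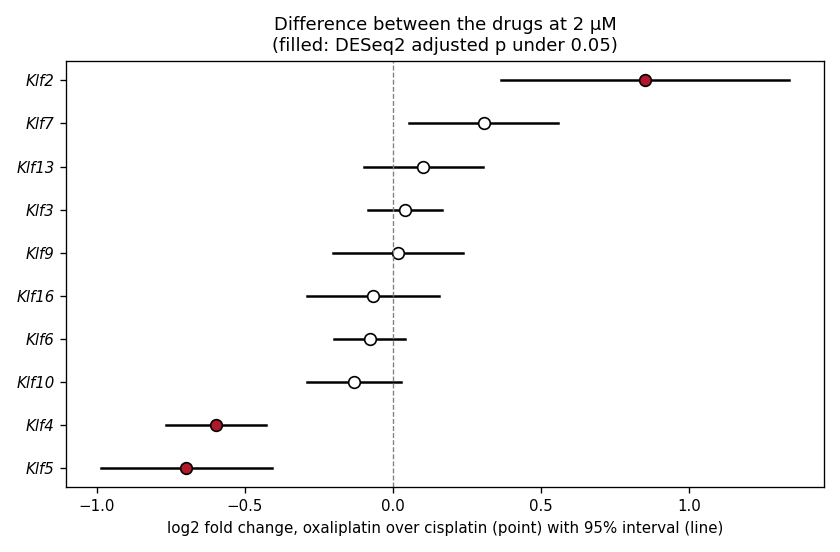
Log2 fold change of oxaliplatin over cisplatin (x axis) for each KLF gene, with its 95% interval as a line. Filled points passed DESeq2 (adjusted p under 0.05): Klf2 lies to the right at 0.85, and Klf4 and Klf5 lie to the left at -0.60 and -0.70.

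The remaining KLF genes and the related Sp factors, which bind the same GC boxes, were described from a list of 16, of which 9 passed the filter. Between the drugs 3 of these 9 were called, all higher with oxaliplatin (median 0.14). Against control 1 was called with oxaliplatin, Sp1 as lower, and 4 with cisplatin, Klf11 as higher and Sp1, Sp2 and Sp7 as lower. Leaving out each library in turn gave 1 call between the drugs, 0 to 1 with oxaliplatin and 1 to 3 with cisplatin. The shares of all genes called in the reported fit were 19.9% between the drugs, 20.2% with oxaliplatin and 28.1% with cisplatin. Sp1, a ubiquitous activator, had 3557 and 4042 normalised counts in control, 3387 and 3278 with oxaliplatin and 2557 and 2732 with cisplatin. With cisplatin it fell (log2 fold change -0.52 ± 0.07, DESeq2 adjusted p = 2.87e-11) and so it did with oxaliplatin (-0.19 ± 0.07, adjusted p = 0.0384), and differed between the drugs by 0.33 ± 0.07 (adjusted p = 7.11e-05). The oxaliplatin call was lost without any 1 library except control replicate 1, with adjusted p from 0.0681 to 0.532. Without control replicate 2 the log2 fold change with oxaliplatin was -0.09.

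Sp2, a close relative of Sp1, had 599 and 623 normalised counts in control, 568 and 598 with oxaliplatin and 456 and 465 with cisplatin. With cisplatin it fell (log2 fold change -0.41 ± 0.12, DESeq2 adjusted p = 0.00285) and had -0.07 ± 0.12 with oxaliplatin (adjusted p = 0.743). The drug difference was 0.34 ± 0.12 (adjusted p = 0.0197) and was lost without any 1 of the 6 libraries (adjusted p 0.0597 to 0.313), while the cisplatin call was lost without cisplatin replicate 1 or 2 or control replicate 2 (adjusted p 0.0826 to 0.109). Klf12, a CtBP-binding relative of Klf3, had 101 and 98.5 normalised counts in control, 107 and 109.5 with oxaliplatin and 63.7 and 65.5 with cisplatin, and was higher with oxaliplatin by 0.74 ± 0.28 (DESeq2 adjusted p = 0.0374). That call was lost without control replicate 1 (adjusted p 0.103) or 2 (adjusted p 0.102), and DESeq2 gave no adjusted p without any 1 drug library. Klf12 had 0.12 ± 0.27 with oxaliplatin (adjusted p = 0.817) and -0.62 ± 0.28 with cisplatin against control (adjusted p = 0.0799, edgeR adjusted p = 0.00676).

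Klf11, a TGF-β-inducible relative of Klf10, had 157 and 131 normalised counts in control, 156 and 158 with oxaliplatin and 216 and 232 with cisplatin. It rose with cisplatin by 0.64 ± 0.21 (DESeq2 adjusted p = 0.0105) and missed the threshold between the drugs (-0.51 ± 0.21, adjusted p = 0.0540). That cisplatin call was lost without any 1 library except control replicate 1 (adjusted p 0.0525 to 0.220). Sp7, an osteoblast factor at 26.5 to 67.8 normalised counts, fell with cisplatin (log2 fold change -1.06 ± 0.41, DESeq2 adjusted p = 0.0351). It was lost without either oxaliplatin library (adjusted p 0.0940 and 0.107), and DESeq2 gave it no adjusted p without any 1 of the other 4 libraries. Sp3 lay at 2363 to 2617, Sp4 at 145 to 197, Sp8 at 47.1 to 71.6 and Klf15 at 13.3 to 22.5 normalised counts, and these 4 were not called in any comparison, Klf15 having received no adjusted p from DESeq2 between the drugs or with oxaliplatin. The 7 genes that did not pass the filter were Klf1, Klf8, Klf14, Klf17, Sp5, Sp6 and Sp9, among which Klf14, Sp5 and Sp9 had 0 counts in every library.

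Cofactors through which KLF proteins act (11 genes, all tested) had 3 calls between the drugs, all lower with oxaliplatin (median 0.05), and 0 to 2 calls when each library was left out in turn. Against control Hdac2 was called with oxaliplatin, and Hdac1, Sin3b and Sin3a with cisplatin, Sin3a as lower (-0.18 ± 0.07, DESeq2 adjusted p = 0.0356). Leaving out each library gave 0 calls with oxaliplatin and 1 to 3 with cisplatin. Among all genes tested, the reported fit called 19.9% between the drugs, 20.2% with oxaliplatin and 28.1% with cisplatin. Hdac1, a deacetylase of the Sin3 complex, had 3656 and 3431 normalised counts in control, 3547 and 3707 with oxaliplatin and 4343 and 4207 with cisplatin. It rose with cisplatin by 0.27 ± 0.06 (DESeq2 adjusted p = 1.96e-05), had 0.03 with oxaliplatin (adjusted p = 0.742), and was lower with oxaliplatin than with cisplatin by -0.24 ± 0.06 (adjusted p = 3.01e-04). That difference was lost without oxaliplatin replicate 1 (adjusted p 0.0836) or cisplatin replicate 1 (adjusted p 0.0628). Sin3b, a Sin3 scaffold, had 2466 and 2278 normalised counts in control, 2312 and 2334 with oxaliplatin and 2672 and 2617 with cisplatin. Hdac2 had 3273 and 3320.2, then 2886 and 3053, then 3306 and 3267. Between the drugs Sin3b differed by -0.19 ± 0.06 (DESeq2 adjusted p = 0.0193) and Hdac2 by -0.15 ± 0.06 (adjusted p = 0.0385). Sin3b had 0.16 ± 0.06 with cisplatin (adjusted p = 0.0475) and -0.03 with oxaliplatin (adjusted p = 0.807) against control, and Hdac2 had -0.15 ± 0.06 with oxaliplatin (adjusted p = 0.0314) and -0.00 with cisplatin (adjusted p = 0.967). Sin3b lost its drug difference without any 1 drug library (adjusted p 0.152 to 0.269), and Hdac2 lost both its calls without any 1 of the 6 libraries (adjusted p 0.0942 to 0.501 between the drugs and 0.116 to 0.462 with oxaliplatin). The cisplatin call of Sin3b was lost without any 1 library except control replicate 1 (adjusted p 0.135 to 0.441, with a log2 fold change of 0.10 without control replicate 2), as was that of Sin3a (adjusted p 0.106 to 0.400). The Sin3b call was also lost with TMM scaling (DESeq2 adjusted p 0.0571), scaling by total counts (0.194), no count filter (0.0656), a replicate block (0.139) and only the 4 libraries compared (0.0915). The drug difference of Sin3b was lost with scaling by total counts (adjusted p 0.0660) and the block (0.0925). The cisplatin call of Sin3a was lost with the block (adjusted p 0.102) and only the 4 libraries compared (0.0703).

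The list of signals known to act on KLF genes held 16 genes, all tested. Between the drugs 5 were called, 1 higher and 4 lower with oxaliplatin (median 0.03), and 1 to 4 when each library was left out in turn. Shares over all genes in the reported fit were 19.9% between the drugs, 20.2% with oxaliplatin and 28.1% with cisplatin against control. Srf, the serum response factor, had 1069.9 and 993 normalised counts in control, 1315 and 1242 with oxaliplatin and 945 and 915 with cisplatin. It rose with oxaliplatin by 0.31 ± 0.09 (DESeq2 adjusted p = 0.00360), had -0.15 ± 0.09 with cisplatin (adjusted p = 0.219), and was higher with oxaliplatin than cisplatin by 0.46 ± 0.09 (adjusted p = 5.90e-06). The call against control was lost without control replicate 2 or either oxaliplatin library (adjusted p 0.0642 to 0.208). Foxo1, which acts upstream of Klf2 in T cells, had 678 and 699.5 normalised counts in control, 512 and 567 with oxaliplatin and 718 and 735 with cisplatin, and was lower with oxaliplatin than with cisplatin by -0.43 ± 0.11 (DESeq2 adjusted p = 0.00114). It had -0.35 ± 0.11 with oxaliplatin (adjusted p = 0.00985) and 0.08 with cisplatin (adjusted p = 0.659) against control.

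Tgfb1, the ligand that induces Klf10 and Klf11, had 500.2 and 447 normalised counts in control, 427 and 447 with oxaliplatin and 604 and 599 with cisplatin. It was lower with oxaliplatin than with cisplatin by -0.46 ± 0.13 (DESeq2 adjusted p = 0.00203), with 0.34 ± 0.13 for cisplatin (adjusted p = 0.0229) and -0.12 for oxaliplatin (adjusted p = 0.581) against control. Its receptor Tgfbr1 had 907 and 966 normalised counts in control, 790.0 and 799 with oxaliplatin and 961 and 1005 with cisplatin. It had -0.31 ± 0.09 between the drugs (DESeq2 adjusted p = 0.00751), -0.24 ± 0.10 for oxaliplatin (adjusted p = 0.0504) and 0.07 for cisplatin (adjusted p = 0.632) against control. The drug differences of Tgfb1 (adjusted p 0.0640 to 0.138) and Tgfbr1 (adjusted p 0.104 to 0.215) were lost without any 1 drug library. That of Foxo1 was lost without cisplatin replicate 1 (adjusted p 0.0631) or 2 (adjusted p 0.0887) or oxaliplatin replicate 1 (adjusted p 0.162), its call against control without any 1 of the 6 libraries (adjusted p 0.0599 to 0.300), and the Tgfb1 call against control likewise (adjusted p 0.0611 to 0.308). Trp53, chosen for naming after its values were seen because it completes the 5, rose with cisplatin (0.48 ± 0.09, DESeq2 adjusted p = 2.16e-06) and with oxaliplatin (0.25 ± 0.09, adjusted p = 0.0291), with -0.23 ± 0.09 between the drugs (adjusted p = 0.0476). The oxaliplatin call of Trp53 (adjusted p 0.0945 to 0.285) and its drug difference (adjusted p 0.103 to 0.452) were lost without any 1 library. In all, 5 of the 16 were called with oxaliplatin against control (Srf, Egr1, Nr3c1 and Trp53 higher and Foxo1 lower) and 2 with cisplatin (Tgfb1 and Trp53, both higher). Leaving out each library gave 0 to 2 calls with oxaliplatin and 1 with cisplatin. Egr1 (adjusted p 0.0599 to 0.431) and Nr3c1 (adjusted p 0.0831 to 0.323) lost their calls without any 1 library except control replicate 2.

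Genes known as targets of a KLF in some tissue (14 genes, all tested) had 9 calls with oxaliplatin against control, 8 higher and 1 lower, Col1a1 (median 0.36), and 12 with cisplatin, 10 higher and 2 lower, Col1a1 and Pdgfa (median 0.50). Between the drugs 8 were called, 3 higher (Tagln, Ccnb1 and Lgals3) and 5 lower (Ccnd1, Cdkn1a, Smad7, Atf3 and Cdh1) with oxaliplatin (median -0.03), and 3 to 9 when each library was left out in turn. Without any 1 drug library Atf3 lost its drug difference (adjusted p 0.0833 to 0.178), as did Cdh1 except without oxaliplatin replicate 2 (adjusted p 0.0695 to 0.179). Smad7 (adjusted p 0.0704 to 0.0730) and Lgals3 (adjusted p 0.133 to 0.154) lost theirs without oxaliplatin replicate 2 or cisplatin replicate 2. The cisplatin call of Pdgfa was lost without any 1 library except oxaliplatin replicate 1 (adjusted p 0.0506 to 0.192). The oxaliplatin calls of Atf3 and Thbd were lost without any 1 of the 6 libraries. The cisplatin call of Thbd was lost without any 1 control or cisplatin library. That of Cdh1 was lost without control replicate 1 or cisplatin replicate 2. Over all genes, 20.2% were called with oxaliplatin, 28.1% with cisplatin and 19.9% between the drugs, with medians of -0.00285, -0.000832 and -0.00333. The target list was written with earlier results of these data known, so its counts are no independent evidence of direction. Ccnd1, cyclin D1, had 4012 and 4161 normalised counts in control, 5436 and 5242 with oxaliplatin and 7684 and 8087 with cisplatin. Its groups did not overlap and oxaliplatin lay between the others. Its log2 fold changes were 0.39 ± 0.05 for oxaliplatin (DESeq2 adjusted p = 9.94e-13), 0.95 ± 0.05 for cisplatin (adjusted p = 1.08e-77) and -0.56 ± 0.05 between the drugs (adjusted p = 5.86e-28).

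Cdkn1a, the cell cycle inhibitor p21 and a classical KLF4 target, had 120.4 and 139.9 normalised counts in control, 102 and 111 with oxaliplatin and 254 and 263 with cisplatin. It rose with cisplatin by 0.99 ± 0.21 (DESeq2 adjusted p = 3.44e-05), had -0.29 ± 0.23 with oxaliplatin (adjusted p = 0.384), and was lower with oxaliplatin than with cisplatin by -1.28 ± 0.22 (adjusted p = 8.63e-08). Without cisplatin replicate 1 or 2 DESeq2 gave no adjusted p for that difference, and the p adjusted without independent filtering was 0.00335 and 0.00555. Tagln, a smooth muscle cytoskeletal gene, had 4457 and 4429 normalised counts in control, 6628 and 6737 with oxaliplatin and 5205 and 5213 with cisplatin. It rose with both drugs (0.59 ± 0.04, DESeq2 adjusted p = 4.60e-40, and 0.23 ± 0.04, adjusted p = 1.73e-06) and more with oxaliplatin (0.36 ± 0.04, adjusted p = 2.16e-15). Ccnb1, cyclin B1, had 4893 and 4894 normalised counts in control, 5575 and 5698 with oxaliplatin and 4609 and 4719 with cisplatin. It rose with oxaliplatin by 0.20 ± 0.04 (DESeq2 adjusted p = 6.52e-05, adjusted p = 0.0614 without oxaliplatin replicate 2), had -0.07 ± 0.05 with cisplatin (adjusted p = 0.256) and differed between the drugs by 0.27 ± 0.04 (adjusted p = 3.53e-08).

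**Figure D5:**
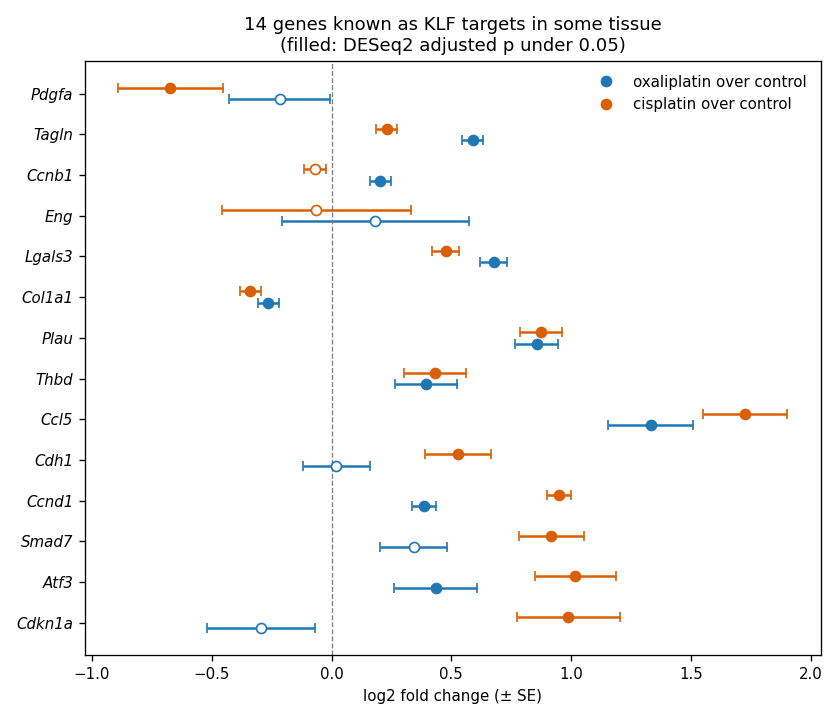
Log2 fold change (x axis, ± SE) over control of 14 genes known as KLF targets in some tissue, for oxaliplatin and cisplatin. Filled points passed DESeq2 (adjusted p under 0.05). Ccl5 lies farthest right with both drugs. Cdkn1a, Cdh1, Smad7 and Pdgfa are filled with cisplatin alone, and Ccnb1 with oxaliplatin alone.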

How the data were processed

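RNA-seq was carried out on 6 TRAMP-C2 libraries (3 groups of 2), grouped by the labels. The authors deposited expected counts per gene, estimated by RSEM (version 1.3.0) with STAR (version 2.5.3a) on GRCm38.p6 per the submitters' processing notes, although the methods of the study name a different counter for in vitro RNA-seq. RSEM divides reads among genes that share them, so members with overlapping genes are uncertain. Values that were not whole (7977 to 8235 in a library) were rounded. Symbols came from GENCODE M21, which held 54409 of the 54446 identifiers.

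All tests used DESeq2 1.42.0 in R 4.3.3, fitted to all 6 libraries with group as factor, size factors of 0.964 to 1.08, two-sided Wald tests, a threshold of 0.05 and Benjamini-Hochberg adjustment over the tested genes (14956) that passed independent filtering at 0.1, which were 12056 in both oxaliplatin comparisons and 13216 for cisplatin against control. Alternatives were edgeR 4.0.16 (quasi-likelihood), scaling by TMM or total counts, other filters, a replicate block, only the 4 libraries compared, and leaving out each library. The test was tested on simulated data. That simulation gave every gene the same replicate spread beyond counting error, so it does not show the error rates in these libraries. Replicates differed by more than sampling noise (mean chi-square per gene 2.80 to 4.62).

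The members and lists were chosen with earlier results of these data known. All members are named, as are up to 4 genes per list with the smallest adjusted p between the drugs, and every Klf or Sp gene that passed the filter. Sin3a, Trp53, Egr1, Nr3c1, Smad7, Atf3, Thbd, Cdh1, Lgals3, Col1a1 and Pdgfa were named after their values were seen. The prostate luminal marker list is not reported here.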

Additional observations from a re-analysis of the deposited data

How the results depend on the processing

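Klf4 and Klf5 kept their drug difference under all 14 alternatives, with independent filtering in each DESeq2 fit, and no result changed sign past the threshold. The number of members called between the drugs was 2 to 4 over 15 alternatives, against control 3 to 7 with oxaliplatin and 4 to 6 with cisplatin. Klf2 was not called between the drugs under the crossed block described below or without any 1 drug library. Scaling by total counts gave 1619 genes higher and 1362 lower with oxaliplatin than with cisplatin, where the reported fit gave 1289 and 1688, and 1826 higher and 2382 lower with cisplatin than control, where it gave 2355 and 1848. The median shift over all genes stayed under 0.1.

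The labels tie no replicate number to a shared culture or day, and the numbers were not taken to pair the libraries. Replicate differences correlated at -0.00723 to 0.0395 between groups over all genes tested. Where the mean count was 100 or more they correlated at 0.0694, -0.0465 and, between oxaliplatin and cisplatin, -0.212. With the replicate block, calls between the drugs were 1 for other KLF and Sp genes, 1 for cofactors and 3 for upstream signals. Against control the block gave 0, 0 and 1 with oxaliplatin, and 2, 1 and 1 with cisplatin. Over all genes it gave 1861 between the drugs and 1958 for oxaliplatin. The members called under the block were 3, 4 and 6. A crossed block (cisplatin numbers exchanged), chosen after seeing the data, gave 3 members for oxaliplatin against control and 1704, 1810 and 2647 genes in all.

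With edgeR, calls between the drugs were 5 for other KLF and Sp genes, 6 for cofactors and 4773 over all genes, with 4618 genes for oxaliplatin and 4 upstream signals for cisplatin against control. At least 10 counts in every library gave 5 cofactors between the drugs, and no filter gave 0 other KLF and Sp genes for oxaliplatin. Only the 4 libraries compared gave 0 cofactors for oxaliplatin and 1 for cisplatin, and total-count scaling gave 1 upstream signal for cisplatin. Between the drugs, TMM or total-count scaling ended the calls of Hdac2 (adjusted p 0.0503 and 0.138) and Trp53 (0.0548 and 0.109). The cause was not tested.

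Leaving out each library gave, between the drugs, 1 to 1 other KLF and Sp genes, 0 to 2 cofactors, 1 to 4 upstream signals, 3 to 9 targets and 1184 to 2453 genes in all. For oxaliplatin against control it gave 3 to 4 members, 0 to 1 other KLF and Sp genes, 0 to 0 cofactors, 0 to 2 upstream signals and 1213 to 2159 genes. For cisplatin it gave 1 to 3, 1 to 3 and 1 to 1 in those lists and 2089 to 3021 genes. A group left with 1 library was assumed to vary like the others.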
